A study of Caenorhabditis elegans with 2 samples.

Results

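The nhr- genes encode the nuclear hormone receptors of Caenorhabditis elegans, and their promoters were searched for binding of ZIP-4, a basic leucine zipper (bZIP) transcription factor. The set was every protein-coding gene of the Ensembl WBcel235 annotation whose name starts with nhr-, which gave 269 of the 19973 protein-coding genes on the 6 nuclear chromosomes. A gene was counted as holding a region when the region's summit lay between 1000 bp before and 200 bp past any of its transcript starts. Chromosome V carries 167 of the genes, IV carries 33, X and I carry 23 each, II carries 15 and III carries 8. Of the 269 genes, 10 had a peak of the authors' optimal set in the promoter.

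Nuclear hormone receptors are transcription factors with a zinc finger DNA-binding domain and a domain that can bind small lipophilic ligands such as steroids, bile acids and fatty acids. Nematodes have far more of them than insects or vertebrates, mostly through expansion of an HNF4-like ancestor, and many of the expanded genes lie in clusters on chromosome V. A minority has clear counterparts in other animals and acts in moulting, cell fate and the larval arrest decision, while members of the expanded group regulate fat metabolism and responses to diet, toxins and hypoxia.

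The data were chromatin immunoprecipitation sequencing (ChIP-seq) peak lists from 1 group with 2 biological replicates, which the labels give as separate worm samples. The worms were whole first-stage (L1) larvae of mixed sex, 6 hours old, starved after bleaching. They were of strain OP590, which carries the unc-119 allele tm4063. Its transgene wgIs590 holds zip-4 fused to TY1, EGFP and 3xFLAG, and unc-119(+) serves as the rescue marker. The antibody was directed at GFP per the description, although another field names zip-4 as the target. There was no group without the tag, fed or at another stage, and the lists hold no expression values, so conditions could not be compared and nothing was tested. Whole larvae were used, so strong binding in few cells and weak binding in many cannot be told apart.

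Each replicate and the pooled reads had a list of 30000 candidate regions, and the optimal set of 1290 peaks was what the authors kept for repeated ranking between replicates by the irreproducible discovery rate (IDR) method. All 1290 were the strongest regions of the pooled list by the signal value that the authors deposited, on a scale that is not explained. It is used here to rank regions within a list, rank 1 being the strongest, and a value called pooled is from the list of the pooled reads. The lowest optimal peak had a signal value of 79.97. A q-value of at most 0.05 was reached by 1461 pooled regions, so most candidate regions are weak and a candidate region alone is not evidence of binding. Sequencing depth is unknown. Intervals given with shares are 95% Clopper-Pearson intervals, and they cover counting over genes or regions only.

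Sequence around the summits of the optimal peaks is shown first, because the peaks fell into those with and those without a word of 8 bases, TTGCGAAA, that was known from earlier work on these lists. It resembles the palindrome TTGCGCAA, to which bZIP factors of the C/EBP class are known to bind. All stretches are from ce11 (WBcel235), written 5′ to 3′ on the strand of the receptor gene, within 50 bp of the summit. In the first set, TTGCGAAA is in capitals and reads as its reverse complement TTTCGCAA. The stretch of nhr-56 is V:2218925-2219003 on the plus strand, that of nhr-117 is V:1621658-1621758 on the minus strand and that of nhr-154 is V:12100949-12101049 on the plus strand.
nhr-56: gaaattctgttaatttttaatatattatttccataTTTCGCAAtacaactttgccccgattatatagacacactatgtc
nhr-117: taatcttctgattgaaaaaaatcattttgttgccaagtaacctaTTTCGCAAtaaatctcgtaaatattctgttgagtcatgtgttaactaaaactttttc
nhr-154: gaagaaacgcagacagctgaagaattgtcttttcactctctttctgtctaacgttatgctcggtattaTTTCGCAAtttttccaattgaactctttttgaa

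The peaks of nhr-47 and nhr-142 held other words in common, GCGCCAGC and ACGCGTCA, which are in capitals in the second set. These were picked out after the sequences had been seen. The stretch of nhr-47 is V:5505203-5505252 on the plus strand and stops at the transcript start, and that of nhr-142 is V:5791048-5791148 on the minus strand.
nhr-47: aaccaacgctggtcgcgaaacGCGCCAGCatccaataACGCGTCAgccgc
nhr-142: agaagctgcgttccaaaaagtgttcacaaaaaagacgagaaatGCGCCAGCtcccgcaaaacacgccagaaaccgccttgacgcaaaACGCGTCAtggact

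The peaks of nhr-48 and nhr-68 are shown as examples with neither kind of word, and have no capitals. The stretch of nhr-48 is X:15707541-15707641 and that of nhr-68 is V:11573028-11573128, both on the plus strand.
nhr-48: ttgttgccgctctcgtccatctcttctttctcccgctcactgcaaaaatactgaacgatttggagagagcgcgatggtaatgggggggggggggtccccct
nhr-68: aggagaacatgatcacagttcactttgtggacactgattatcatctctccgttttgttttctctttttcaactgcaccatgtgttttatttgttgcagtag

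The 10 optimal peaks made up 3.72% of the 269 receptor genes (interval 1.80 to 6.73%), against 5.71% of all protein-coding genes, a value inside that interval. In the replicates taken alone, the 1290 strongest regions reached 9 receptor genes in replicate 1 (3.35%, 1.54 to 6.26%, against 5.75% of all genes) and 15 in replicate 2 (5.58%, 3.15 to 9.03%, against 5.34%). In both replicates the share of all genes also lay inside the interval. Per length of promoter the receptor genes held 25.03 optimal summits per Mb, and all genes held 33.3 per Mb. The median signal value of the 10 was 135 and the highest 262, whereas the 1141 genes with an optimal peak had a median of 152 and a highest value of 3733.

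**Figure D1:**
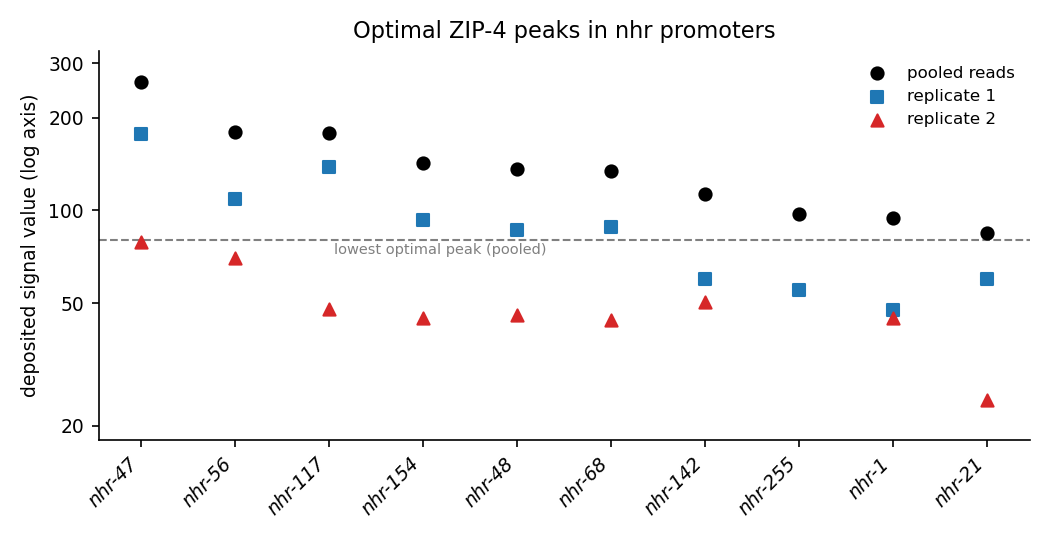
Deposited signal value (log axis) of the 10 optimal peaks in nhr promoters, in the pooled list (circles), replicate 1 (squares) and replicate 2 (triangles). The dashed line marks the lowest pooled signal value of the optimal set, 79.97. All 10 pooled values lie between 84.6 and 262, and nhr-255 has no triangle because replicate 2 had no summit within 100 bp.

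The strongest of the 10 was at nhr-47 (WBGene00003637), at V:5505055-5505450. Its signal value was 262 pooled (rank 226), 177 in replicate 1 (rank 221) and 78.9 in replicate 2 (rank 304). The summit fell on the first base of the annotated transcript, in its 5′ UTR. Assignment of this peak is uncertain, since the divergent gene dnj-19, which encodes a DnaJ-type co-chaperone, starts so close that the summit also stood at -396 bp from it, and a non-coding RNA on the other strand overlaps the summit.

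The peaks of nhr-56, nhr-117 and nhr-154 came next in the pooled list, and were the peaks with TTGCGAAA. All were in intergenic sequence on V and in no other gene's promoter. At nhr-56 (V:2218777-2219172) the summit stood at -29 bp from the start, and signal values were 180 pooled, 109 in replicate 1 and 69.9 in replicate 2. At nhr-117 (V:1621510-1621905) it stood at -188 bp, with 179 pooled, 139 in replicate 1 and 47.96 in replicate 2. At nhr-154 (V:12100801-12101196) it stood at -294 bp, with 142 pooled, 93.3 in replicate 1 and 44.8 in replicate 2. In all of these the replicate ranks lay between 318 and 704, so each was well inside the strongest 1290 of either replicate. The genes upstream of nhr-117 and nhr-154 are themselves receptor genes on the same strand, nhr-110 and nhr-209.

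On the strand of each gene, the centre of the word lay at -11.5 bp from the summit at nhr-56. It lay 2.5 bp upstream of the summit at nhr-117 and 21.5 bp downstream at nhr-154. That is 3 of 10 receptor peaks, against 150 of the 876 optimal peaks in any promoter (17.1%). Among all weaker pooled regions in promoters the word was in 1.49%. Wherever it stood in the 1201 bp around the outermost start, 17 receptor genes (6.32%) had it, against 10.1% of all genes. Of those 17, 3 had an optimal peak (17.6%), and of the 252 without it 7 did (2.78%). Over all genes the same shares were 14.6% and 4.72%. The word was searched on both strands, and a match is a description of these letters only. A degenerate form of the C/EBP site, which has the same length and contains TTGCGAAA among its forms, was in the same 3 receptor peaks and in 27.3% of the 876.

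The other peaks on V lay between genes that face away from each other. The nhr-68 receptor is known to act with NHR-10 in switching on the propionate shunt, a pathway that breaks down propionate when vitamin B12 is scarce. Its peak at V:11572880-11573275 had a signal value of 134 pooled, 88.1 in replicate 1 and 44.1 in replicate 2. The summit stood at -362 bp from nhr-68 and at -88 bp from H12C20.7, so it was nearer to the neighbour. The peak of nhr-142 at V:5790900-5791295 had 113 pooled, 60.02 in replicate 1 and 50.4 in replicate 2. It stood at -545 bp from nhr-142 and at -132 bp from F44E7.9. Of the 10 peaks, 3 thus lay in the promoter of another gene as well, and for all optimal promoter peaks this held for 311 of 876 (35.5%).

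On X, optimal peaks stood at nhr-48, nhr-255 and nhr-1. The nhr-48 gene encodes a receptor of the group that also holds NHR-8 and DAF-12, related to the vertebrate vitamin D and xenobiotic receptors. Its peak at X:15707393-15707788 was intergenic at -622 bp, with 137 pooled, 86.6 in replicate 1 and 45.7 in replicate 2. The summit of nhr-1 at X:17513500-17513895 stood at -365 bp, with 94.1 in the pooled list and nearly equal values in the replicates, 47.6 in replicate 1 (rank 1600) and 44.6 in replicate 2 (rank 708). The peak of nhr-255 at X:15741821-15742216 stood at -591 bp and had 97.0 in the pooled list and 55.3 in replicate 1. In replicate 2 the nearest summit lay just past the limit of 100 bp, with a signal value of 36.4. An annotated tRNA gene reaches to within 50 bp of the summit, so assignment of this peak to nhr-255 is uncertain. A weaker pooled region of the same promoter (48.3, rank 4292, at -373 bp) also lay within 200 bp of the tRNA gene. The part of the tRNA gene in the signal was not tested.

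The last of the 10 was inside its own gene. The peak at II:7345969-7346364 lay in an intron of nhr-21, at -337 bp from an internal start of this gene with 6 starts, and it had 84.6 pooled (rank 1181), 60.002 in replicate 1 and 24.2 in replicate 2. Its rank of 2852 in replicate 2 was the lowest among the 9 receptor peaks with a summit there. It dropped out where only the outermost start was used.

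**Figure D2:**
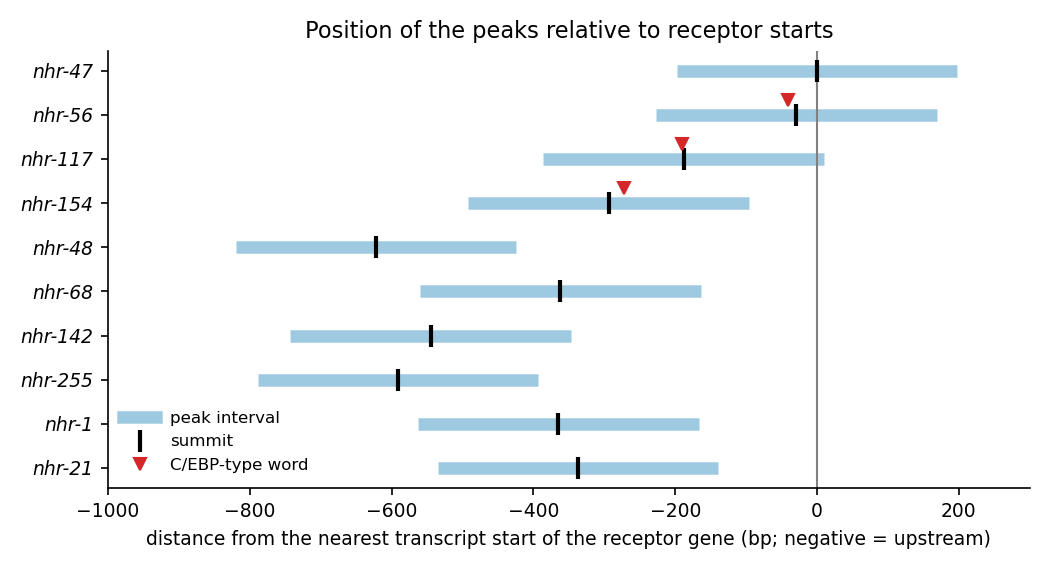
Position of the 10 optimal peaks (bars), their summits (black ticks) and TTGCGAAA (red triangles), in bp from the nearest counted transcript start (0), upstream to the left. Summits range from 0 bp at nhr-47 to -622 bp at nhr-48.

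Both replicates gave a summit within 100 bp of the pooled one at 9 of the 10 peaks, against 95.3% of the 876 optimal peaks in promoters. The ratio of the signal value in replicate 1 to that in replicate 2 had a median of 2.00 over these 9 (1.07 at nhr-1 to 2.89 at nhr-117). Over all optimal peaks with both summits, the receptor peaks among them, the median was 1.89 (n = 1218, 0.586 to 8.56). Counted per gene, 9 of the 10 genes were in the strongest 1290 regions of replicate 1, all but nhr-1, and 9 in those of replicate 2, all but nhr-21. No other receptor gene was among the strongest of both replicates.

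Replicate 2 added 6 receptor genes of its own and replicate 1 added 0. The matching numbers over all genes were not counted, so this difference is not read as a trait of receptor genes. The 6 were nhr-71 (signal value 41.5 in replicate 2), nhr-114 (38.3), nhr-25 (34.1), nhr-65 (34.02), nhr-14 (33.1) and nhr-105 (33.0). Of these, nhr-71, nhr-65, nhr-14 and nhr-105 had no summit in replicate 1 within 100 bp of that region. At nhr-105 a replicate 1 summit lay just past this limit, with a signal value of 38.9 (rank 2599). Both replicate summits of nhr-105 were within 100 bp of its pooled summit. At nhr-114 the matching region of replicate 1 was near the end of its list, with a signal value of 18.7 and rank 28403.

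**Figure D3:**
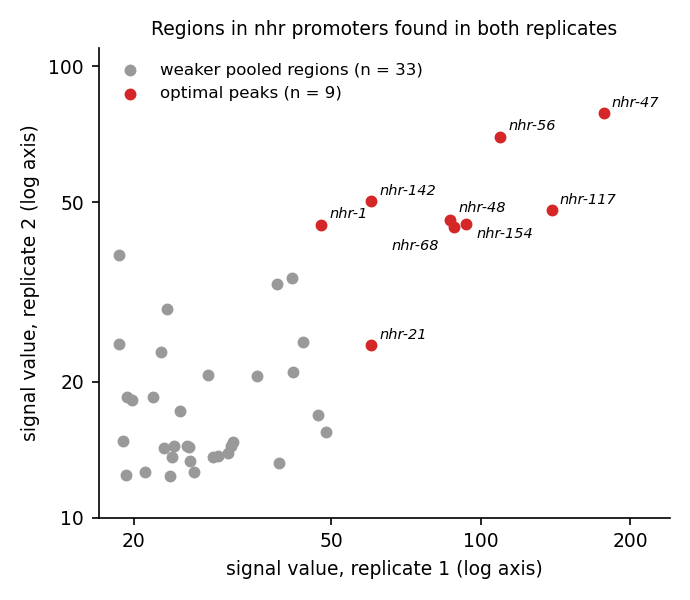
Signal value of replicate 1 (x, log axis) against replicate 2 (y, log axis) for pooled regions in nhr promoters that had a summit within 100 bp in both replicates. Red points are 9 optimal peaks and grey points are 33 weaker regions. The optimal peaks lie to the upper right, with nhr-21 the lowest of them in replicate 2.

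The lowest optimal peak among receptor genes, nhr-21, stood at 84.6, and the strongest region below the optimal set, that of nhr-25, stood at 79.8 (rank 1292, q = 0.0252). NHR-25 is the counterpart of insect FTZ-F1 and mammalian SF-1, and it is needed for moulting and epidermal development. Its region at X:13008158-13008553 had 41.7 in replicate 1 and 34.1 in replicate 2, with the summit at -137 bp, inside exons of overlapping non-coding RNAs. The next regions were at nhr-42 (pooled 71.3, at -107 bp), nhr-120 (68.9, at -937 bp), nhr-114 (66.7, at -652 bp, in an intron of Y45G5AM.9) and nhr-88 (64.6, at +90 bp, in its own intron). Their support in the replicates was uneven. The regions of nhr-42 and nhr-88 had no summit in replicate 2 within 100 bp. Replicate 2 did have a region elsewhere in both promoters, 24.3 at nhr-42, just past that limit, and 23.5 at nhr-88. The region of nhr-120 had 48.8 in replicate 1 and 15.5 in replicate 2.

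Among 10 receptors with clear counterparts outside nematodes, 1 had an optimal peak (nhr-48). A region among the 5000 strongest pooled regions was at 3 (nhr-48, nhr-25 and nhr-85), and 8 had a region anywhere in the pooled list. Over all protein-coding genes these shares were 5.71%, 12.3% and 39.7%, and the same shares stand beside the lists that follow. NHR-85, related to insect E75 and mammalian Rev-Erb and active in developmental timing, had 55.4 in the pooled list at -962 bp, 31.1 in replicate 1 and 26.8 in replicate 2, the value of replicate 2 coming from another position in the promoter. NHR-23, a counterpart of ROR that drives the moulting cycle, had no pooled and no replicate 1 region, and a weak region of 15.5 in replicate 2. NHR-91 had no region in any list.

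Of 11 receptors known for lipid metabolism and nutrient response, 1 had an optimal peak (nhr-68), 4 were among the 5000 strongest and 5 had any pooled region. NHR-66, which is known as a partner of NHR-49, had 61.3 in the pooled list at -67 bp, 41.9 in replicate 1 and 21.0 in replicate 2. NHR-49, a main regulator of fat use in the fasting response, had a weak region of 49.1 (rank 4053) at -333 bp. Within 100 bp of it, replicate 1 had 21.8 and replicate 2 had 18.6. NHR-114, which protects the germ line against toxic products of diet, is the gene with the uneven replicates described above. NHR-80, NHR-13 and NHR-76 had no region in any of the lists.

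Among 6 receptors of xenobiotic, pathogen, hypoxia and iron responses, 0 had an optimal peak, 2 were among the 5000 strongest and 5 had any pooled region. The nhr-57 gene, a known target of the hypoxia factor HIF-1, had 61.2 pooled at -280 bp, 43.8 in replicate 1 and 24.6 in replicate 2. The nhr-14 gene, whose product acts in iron uptake, had 50.1 pooled at -141 bp, with no replicate summit within 100 bp. Of 10 receptors of development and moulting, 0 had an optimal peak, 3 were among the 5000 strongest and 7 had any pooled region. Beside nhr-25 and nhr-85 these included nhr-40, which acts in muscle development, with 51.1 pooled at -687 bp and, within 100 bp, 23.3 in replicate 1 and 29.1 in replicate 2. The lists overlap, so their counts are not separate results. The genes nhr-6, nhr-23, nhr-25, nhr-41, nhr-67, nhr-85 and nhr-91 are in both the conserved and the development lists. The gene nhr-8 is in both the conserved and the xenobiotic lists. With so few genes per group, the shares cannot be ranked.

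The strong peaks were a small part of what the lists held at receptor genes. Any of the pooled regions was in the promoter of 112 receptor genes (41.6%, 35.7 to 47.8%), against 39.7% of all genes. Replicate 1 gave 119 (44.2%, 38.2 to 50.4%, against 40.3%) and replicate 2 gave 113 (42.0%, 36.04 to 48.2%, against 39.4%). Both replicate lists held a region at 70 (26.0%, 20.9 to 31.7%, against 23.6%). All 3 candidate lists held one at 68 receptor genes (25.3%), and none of the 3 did at 106 (39.4%). For these last counts no share of all genes was computed, so they are not read as a result about receptor genes. The strongest 5000 pooled regions were in the promoters of 34 receptor genes (12.6%, 8.91 to 17.2%, against 12.3%). Wherever a share of all genes is given here, it lay within the interval of the receptor genes.

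Taking the strongest pooled region of each gene, ranks 1291 to 5000 held 24 receptor genes (8.92%, against 6.55% of all genes) and ranks 5001 to 10000 held 22 (8.18%, against 6.46%). The next ranks up to 20000 held 28 (10.4%, against 11.2%), those from there to 30000 also 28 (against 9.77%), and 157 genes (58.4%, against 60.3%) had no pooled region. The median signal value per gene with a region was 38.7 for receptor genes (quartiles 31.6 and 50.7, n = 112) and 37.7 for all genes (n = 7925). In replicate 1 the medians were 25.8 and 26.0, and in replicate 2 they were 16.8 and 16.7. In each list the medians of receptor genes and of all genes lay far closer together than the quartiles of either.

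**Figure D4:**
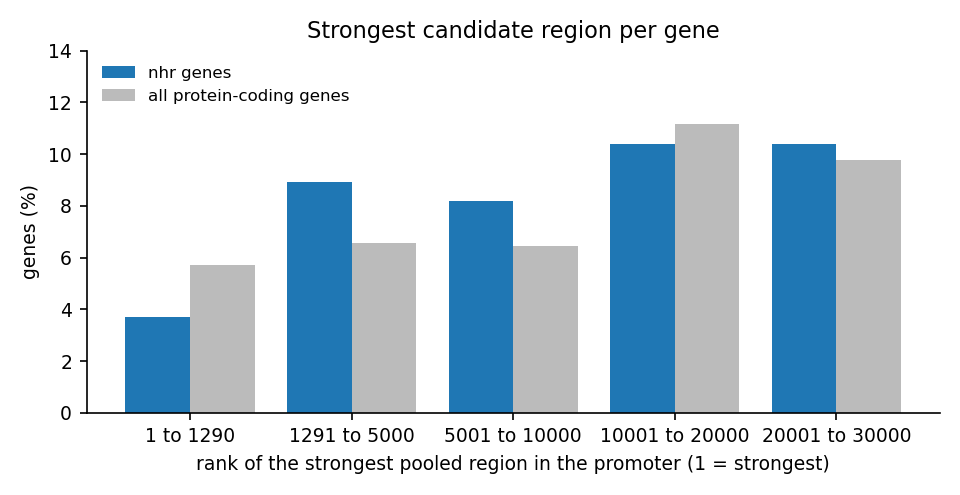
Share of genes (percent) by the rank of the strongest pooled region in the promoter, for the 269 receptor genes and for all 19973 protein-coding genes. Receptor genes stand at 3.72% against 5.71% in the optimal ranks and at 8.92% against 6.55% in ranks 1291 to 5000.

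Repeatability declined with rank. Of the 147 pooled regions in receptor promoters, 27 had ranks 1291 to 5000, and 14 of these (51.9%) had summits in both replicates, against 65.7% of all promoter regions of those ranks. At ranks 5001 to 30000 it was 19 of 110 (17.3%, against 15.01%). Of the 147 regions, 10 also lay in the promoter of a gene outside the set. A further 1 lay in the promoters of a pair of receptor genes, nhr-94 and nhr-152, and it was weak (rank 14352). Over all promoter regions, 1201 of 8916 (13.5%) lay in the promoters of 2 or more genes. The upstream neighbour was itself a receptor gene for 98 of the 269. Where it is on the same strand, as nhr-110 is for nhr-117, its start lies at its far end. The part of this layout in the count of shared regions was not tested.

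The median distance to the next gene upstream was 792.5 bp for the 10 genes with an optimal peak (395 to 27227 bp, quartiles 656 and 6424 bp), 1899 bp for the 102 with weaker regions only and 1517 bp for the 157 with none. It was 1590 bp over all receptor genes, 939 bp over all protein-coding genes and 585 bp over all genes with an optimal peak. A divergent upstream neighbour was present for 6 of the 10, for 38.7% of all receptor genes and for 42.1% of all genes, and for 63.6% of all genes with an optimal peak. Over all genes the share with an optimal peak declined from 7.58% where the neighbour was nearer than 500 bp to 3.17% where it was 2000 bp or more away. Receptor genes had an optimal peak at 2 of 55 in the nearest class, 4 of 45 from 500 to 1000 bp, 1 of 54 from 1000 to 2000 bp and 3 of 115 in the farthest, counts too small to give a trend. The part of this spacing in the share of receptor genes with an optimal peak was not tested.

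By chromosome, optimal peaks were at 6 of the 167 receptor genes on V (3.59%, 1.33 to 7.66%, against 4.45% of all genes there) and at 4 of the 102 elsewhere (3.92%, 1.08 to 9.74%, against 6.14%). Both shares of all genes lay within the intervals. On II it was 1 of 15 (6.67%, 0.169 to 31.9%, against 5.39% of all genes there). On I, III and IV it was 0 of 23, 8 and 33 genes, against 7.09%, 9.2% and 5.15% of all genes there. These counts allow shares of up to 14.8%, 36.9% and 10.6%. On X it was 3 of 23 (13.0%, 2.78 to 33.6%, against 4.28% of all X genes).

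Receptor genes on X had candidate regions more often than other X genes in each list, although X was picked out from 6 chromosomes after the values were seen. The pooled list had a region at 18 of the 23 (78.3%, 56.3 to 92.5%), against 43.2% of all X genes. Replicate 1 had one at 17 (73.9%, 51.6 to 89.8%, against 43.4%), and replicate 2 also at 17, against 42.2%. With the outermost start only, the pooled count was 17, against 38.8%. The median signal value of the strongest pooled region was 47.2 at X receptor genes and 37.1 at all X genes with a region. Their promoters held 640 pooled summits per Mb against 383 per Mb for all X genes. In the pooled list receptor promoters on II showed a like excess in this measure, 554 against 327 per Mb, so there it was not particular to X. In the replicates the excess on II was smaller, 426 against 335 per Mb in replicate 1 and 426 against 314 in replicate 2. On X these values were 717 against 377 per Mb in replicate 1 and 589 against 375 in replicate 2.

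Upstream spacing also differed, and its part in the result on X was not tested. Receptor genes on X had a median of 5033 bp to the next gene upstream, against 2123 bp for all X genes. The longest median of receptor genes was on IV, 5553 bp against 921 bp for all genes there. A pooled region was at 45.5% of the receptor genes on IV, against 39.3% of all genes there. Among genes with 2000 bp or more upstream, 14 of 17 X receptor genes had a pooled region (82.4%), against 43.3% of the 1414 X genes of that class. The same class gave 6 of 9 receptor genes on II (against 35.0% of all genes there), 13 of 23 on IV (56.5%, against 37.7%), 5 of 11 on I (45.5%, against 37.3%) and 2 of 5 on III (against 39.7%). On V it gave 12 of 50 (24.0%, against 36.4%). Within this class the receptor share thus stood above that of all genes on I, II, IV and X, near it on III and below it on V, with few genes on most of them.

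**Figure D5:**
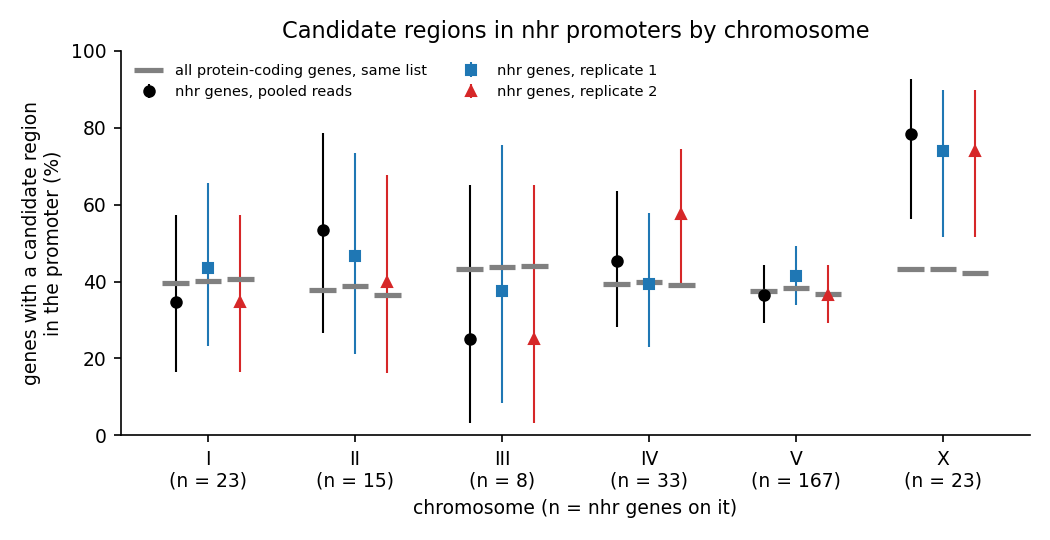
Share of genes (percent) with a candidate region in the promoter, by chromosome and list, for receptor genes (circles pooled, squares replicate 1, triangles replicate 2, with 95% Clopper-Pearson intervals) and for all protein-coding genes (grey bars). On X the pooled list stands at 78.3% against 43.2%, and on IV the interval of replicate 2 starts just above the grey bar.

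Other parts of nuclear receptor signalling were looked up in the same way, the value in each list being that of the strongest region in the promoter. Of 5 nuclear receptors with other names, 0 had an optimal peak and 1 had any pooled region. It was daf-12, the receptor for dafachronic acids that governs the larval arrest decision, with 51.8 pooled at +98 bp, 18.9 in replicate 1 and 28.7 in replicate 2. Of 5 coregulators found in the annotation, 1 had an optimal peak and 3 had any pooled region. The peak was at cbp-1, which encodes the CBP-type histone acetyltransferase, and it was stronger than all the receptor peaks, with 543 pooled at -916 bp (rank 61), 359 in replicate 1 and 184 in replicate 2.

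Of 8 genes known as targets of NHR-49, 1 had an optimal peak and 4 had any pooled region. It was icl-1, the glyoxylate cycle enzyme, with 135 pooled at +178 bp, 63.1 in replicate 1 and only 14.4 in replicate 2 (rank 18030). The 4 enzymes of dafachronic acid synthesis that were looked up had 0 pooled regions. Over all genes, 5.71% had an optimal peak and 39.7% had any pooled region. These lists hold too few genes for their shares to be read against those values.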

How the data were processed

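Per the labels and the accompanying file descriptions, the authors made each candidate list from alignments and a control alignment on ce11, as input for IDR, and deposited the lists in narrowPeak format. The aligner, caller, settings, threshold of IDR and sequencing depth were not stated in them. Values used were the deposited signal value, the −log10 q-value as the authors deposited it, and the summit offset. Intervals are given 1-based, and all lay within the WBcel235 chromosome lengths.

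Genes and transcript starts came from Ensembl release 115. Replicate summits were matched within 100 bp, and small RNA genes within 200 bp. Words were searched in 101 bp windows of the reference. The assignment of summits was tested on simulated data. Tools were Python 3.11.15, numpy 2.4.6, pandas 2.3.3, scipy 1.17.1 and matplotlib 3.10.9.

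The genes and the 8 gene lists were chosen with earlier results of these data known. Named are all receptor genes with an optimal peak, the 5 with the strongest regions below that set, list members among the 5000 strongest regions, promoter-sharing neighbours, and members of other lists with an optimal peak. Other genes were named after their values were seen. Alternatives changed promoter width, starts, peak strength, replicate, summit distance and word window. The class of DNA-binding domain was not analysed here.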

Additional observations from a re-analysis of the deposited data

How the results depend on the processing

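Over 10 results and 49 alternatives, 7 values moved, a count being taken as moved where it changed by more than 1.5 times. All results are counts or positive medians, which cannot change sign. Receptor genes with an optimal peak numbered 6 when the stronger part of the optimal peaks was used, and all genes then numbered 660. Under the other alternatives the receptor count was 7 to 15. The narrow promoter, 500 bp before to 100 bp past the start, dropped nhr-48, nhr-142 and nhr-255. Leaving out 1 replicate gave 9 genes without replicate 2 and 15 without replicate 1. In the latter the receptor share stood above that of all genes (5.58% against 5.34%), where the optimal set has it below (3.72% against 5.71%). Conserved receptors numbered 0 in the narrow promoter and 2 at q of 0.05 or less (nhr-25 added), and 1 to 2 with 1 replicate left out. The median signal value was 25.81 in replicate 1 alone and 16.85 in replicate 2 alone, lists with scales of their own. Receptor genes with a pooled region numbered 75 to 150 over promoter widths, and the share of all genes at those widths was not computed. Without peaks near small RNA genes, an alternative added after seeing the data, 9 genes with an optimal peak were left (3.35%, against 5.41% of all genes). The gene lost was nhr-255. No paired analysis was possible because there was 1 group. The unknown depth limits all statements on absent regions.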

Other observations

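Strong peaks also lay beyond the promoter limits of receptor genes, and in the promoter of no protein-coding gene. The strongest was at V:18901605-18901827, at -1154 bp from nhr-243, with a signal value of 452 pooled (rank 86), 325 in replicate 1 and 122 in replicate 2. It exceeded all 10 promoter peaks of the set, and it held TTGCGAAA. The peak at X:14557279-14557674, at -1027 bp from nhr-3, also held the word and had 226 pooled, 144 in replicate 1 and 79.1 in replicate 2. A further peak of 117 stood at 1951 bp past the start of nhr-3. The peak of nhr-84 at V:15880722-15881117 stood at -1312 bp with 218 pooled, 158 in replicate 1 and 59.0 in replicate 2. That of nhr-19 at II:9603441-9603836 stood at 1611 bp past the start with 205 pooled, 132 in replicate 1 and 77.8 in replicate 2. Such distances leave the assignment to a gene uncertain.

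The words shared by the peaks of nhr-47 and nhr-142 were rarer in weaker promoter regions than in optimal promoter peaks. GCGCCAGC was in 57 of the 876 optimal promoter peaks (6.51%) and in 28 of the 8040 weaker promoter regions (0.348%). ACGCGTCA was in 23 (2.63%) and 13 (0.162%). Words were counted on both strands, and these were noticed in the same peaks that they describe.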
